A study of Mus musculus with 143 samples.

Results

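Single mouse oocytes lacking Dis3 were compared before and after the first 3 h of culture. The comparison holds the 31 poly(A) libraries titled for Dis3 conditional knockout (cKO) oocytes at 2 stages, 15 oocytes at the germinal vesicle stage (GV) and 16 oocytes of the 3 h stage (GV3h), out of 71 poly(A) libraries and 143 samples in the series. Members were chosen by their titles alone, so no measured value entered the choice. The GV oocyte with title number 9 was not analysed here. Per the labels, each library is 1 oocyte, and these oocytes were taken from ovaries and kept in M2 medium, and all carried the genotype label dis3cKO, from mutant mice made with CRISPR/Cas9. Control oocytes of the same stages, 8 GV and 8 GV3h libraries prepared the same way, are given beside them. The labels used here do not name the Cre driver, the age or number of the females, which oocytes share a female, whether an inhibitor of maturation was present before the 3 h, or whether nuclear envelope breakdown was scored. All p-values therefore measure the spread between oocytes, some of which may be sisters.

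A fully grown mammalian oocyte is arrested in meiotic prophase with an intact nucleus, held there by cyclic AMP and protein kinase A. When cyclic AMP falls, CDK1 is activated, the nuclear envelope breaks down and maturation to metaphase II (MII) begins. Transcription is low by this time, and the stored messages are controlled through their poly(A) tails: some are polyadenylated and translated, and others are deadenylated and degraded. DIS3 is a ribonuclease of the nuclear RNA exosome, which trims and degrades RNA. Because RNA was captured on oligo-dT beads, a value here follows both the amount of a message and how well its tail was captured, and these cannot be told apart.

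Gene counts ranged from 5984082 to 10310183 per GV library and from 6163212 to 15412200 per GV3h library. Values are CPM (gene reads scaled to a common library size) with library sizes adjusted by the trimmed mean of M values (TMM), and fold changes are log2 values of GV3h against GV. Oocyte markers were abundant in every library: the summed level of 16 of them was 17488 to 26039 CPM at GV and 21404 to 28411 CPM at GV3h. Some libraries stood apart. GV3h oocytes 15 and 16 were the closest of 2485 library pairs in their gene counts (chi-square per degree of freedom 2.68, next pair 6.59), but their spike-in counts (9.63) ranked 428th, so they did not agree within sampling noise. They are labelled as separate oocytes and were kept so, and whether both came from 1 oocyte was not tested. With the pair summed to 1 sample the knockout comparison called 2585 genes in place of 3009. GV oocyte 8 was the most distant of its group (median chi-square per degree of freedom to its group 76.2, against 27.5 over the pairs of the group), followed by GV oocyte 6 (54.6). Counts without these libraries are given below.

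Dis3 itself was low at both stages, at 0.683 to 5.85 CPM (median 2.82) in GV and 0.212 to 5.24 CPM (median 2.13) in GV3h oocytes of the knockout. All 31 libraries lay below the lowest of the 16 control libraries, which spanned 9.597 to 17.9 CPM at GV and 7.28 to 17.99 CPM at GV3h. The change over 3 h in the knockout, -0.37 (edgeR adjusted p 0.471, SE 0.33), did not pass the threshold. Dis3 overlaps Pibf1 in the RefSeq annotation, and counting by strand is not stated in the sources used here. Exosc10, the other nuclear exosome ribonuclease, was at 58.2 to 99.0 CPM (median 84.0) and 70.2 to 129 CPM (median 88.4), a change of 0.16 (edgeR adjusted p 0.380, SE 0.12).

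Within 3 h the knockout transcriptome moved in both directions. Of 17389 genes tested with edgeR, 3009 (17.3%) passed an adjusted p of 0.05, 1291 (7.42%) higher and 1718 (9.88%) lower at GV3h. Most steps were small, with a median absolute log2 fold change of 0.61 among the higher and 0.51 among the lower genes, and 273 and 330 of them moved more than 2-fold. Complete separation of all 16 GV3h from all 15 GV oocytes was rare: 11 genes (0.0633%) lay wholly above and 6 (0.0345%) wholly below. Without GV3h oocytes 15 and 16 the test called 2121 genes, 2067 of them among the 3009, and without GV oocytes 6 and 8 it called 3372, 2520 of them shared. The count rests on relative levels. Scaled to the ERCC spike-ins, RNAs added in equal amount to each lysate, the median change of all genes was 0.47 in place of 0.00, and 6434 genes were called, 6269 higher and 165 lower. Every fall below is therefore a fall relative to the typical message, and the ERCC-scale median is given beside each gene group.

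Among the genes outside the fold ranking that separated completely, named after their values were seen, Cgn, which encodes the junction protein cingulin, went from 50.6 to 103 CPM at GV to 106 to 144 CPM at GV3h, a log2 fold change of 0.62 (edgeR adjusted p 8.20e-07, SE 0.09), and it also rose in controls (0.58, adjusted p 0.00328). Tmco6 rose by 0.95 (adjusted p 6.72e-06) and by 1.26 (adjusted p 1.99e-04). Kpna2, an importin alpha that carries proteins into the nucleus, held 36.4 to 61.0 CPM at GV and 20.4 to 32.0 CPM at GV3h. Its change was -0.83 (edgeR adjusted p 5.52e-04, SE 0.18) against -0.13 (adjusted p 0.856) in controls, and the difference had an adjusted p of 0.247.

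Among the 12 risers ranked by size of change, Sh3rf2, which encodes a ubiquitin ligase with SH3 domains, came first. It was at 0 to 0.822 CPM (median 0) in GV and 5.61 to 35.5 CPM (median 19.11) in GV3h knockout oocytes, with no overlap between the groups and a log2 fold change of 7.13 (edgeR adjusted p 1.02e-12, SE 0.66). Control GV3h oocytes reached 20.4 to 36.7 CPM (median 22.7), while 7 of 8 control GV oocytes were below 2 CPM and 1, GV control 1, was at 34.0 CPM. Without that oocyte the test of a difference between the genotypes' changes gave 0.77 (edgeR adjusted p 0.698) in place of 4.72. In MII eggs the mean was 12.98 CPM in the knockout and 14.7 CPM in controls. CPM values of MII eggs, here and below, are shares of a smaller total relative to the spike-ins. Gene counts per ERCC count had medians of 53.3 in knockout and 45.6 in control MII eggs, against 139 and 154 at GV3h.

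Grb7, an adaptor that binds receptor tyrosine kinases, stood at 0 to 4.10 CPM (median 0.561) before and 4.68 to 26.4 CPM (median 14.2) after culture, again without overlap. Its log2 fold change was 3.48 (edgeR adjusted p 1.05e-07, SE 0.45), and in controls, where the mean moved from 0.477 to 3.60 CPM, it was 2.90 (adjusted p 0.00978). Slc16a5, of the monocarboxylate transporter family, went from a range of 0 to 5.15 CPM (median 2.20) to one of 6.74 to 62.1 CPM (median 18.03), a change of 3.25 (edgeR adjusted p 5.90e-07, SE 0.46), and by 2.32 (adjusted p 0.0479) in controls. Both genes rose in both genotypes, and the difference between the genotypes' changes did not pass the threshold for either (adjusted p 0.837 and 0.688). The control rises were uneven. GV3h controls 6 and 8 held 0.520 and 0.834 CPM of Grb7, within the GV control range of 0 to 1.45 CPM. GV3h controls 7 and 8 held 1.14 and 0.185 CPM of Slc16a5, within the GV control range of 0 to 1.18 CPM. In MII eggs of the knockout the means of Grb7 and Slc16a5 were 21.9 and 41.3 CPM. These eggs split by title number, with eggs 1 to 4 at 1.70 to 4.94 and 0.514 to 10.6 CPM. The other eggs held 10.3 to 60.5 and 15.7 to 104 CPM.

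Entpd1 encodes CD39, the ectonucleotidase that hydrolyses extracellular ATP and ADP. Knockout GV oocytes held 0.822 to 21.7 CPM (median 5.19) and knockout GV3h oocytes 21.8 to 54.8 CPM (median 39.4), and the highest GV oocyte lay just under the lowest GV3h oocyte. The log2 fold change was 2.28 (edgeR adjusted p 7.52e-08, SE 0.29). Controls were at 22.1 to 47.6 CPM (median 44.9) before and 14.2 to 65.5 CPM (median 47.5) after culture, a change of 0.05 (adjusted p 0.970), so that the knockout started low and reached the control range at 3 h. Control GV3h oocytes split by title number, with oocytes 1 to 4 at 53.7 to 65.5 CPM and oocytes 5 to 8 at 14.2 to 41.3 CPM. The difference between the changes was 2.23 (edgeR adjusted p 0.00544, SE 0.48), and its control part averages these 2 runs.

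The other 8 of the 12 risers named by size of change were smaller or more uneven. Myo15b, a myosin-like gene, rose from 1.79 to 9.17 CPM (medians; 2.11, edgeR adjusted p 2.19e-04, SE 0.42) with no overlap. The transcript AC134458.2 went from 6.01 to 16.9 CPM (1.62, edgeR adjusted p 7.36e-06, SE 0.26) in the knockout and fell in controls (-1.26, adjusted p 0.0402), and its changes differed by 2.89 (edgeR adjusted p 1.04e-04, SE 0.45). GV controls 2, 3 and 6 held the most of it among GV controls, at 15.1, 10.1 and 10.9 CPM. Without them the difference was 2.21 (edgeR adjusted p 0.0141). Cdkn2b, the p15INK4B inhibitor of CDK4 and CDK6, stayed low in absolute terms, at a median of 1.15 CPM in GV and 3.83 CPM in GV3h (2.13, edgeR adjusted p 0.00160, SE 0.50). Ap5b1, a subunit of the AP-5 trafficking complex, Kank4os, Mamdc2 and Tmem268 had log2 fold changes of 2.16, 1.93, 1.60 and 1.60, and GV3h medians of 4.48, 5.82, 7.43 and 5.27 CPM in that order. Gm10800 was uneven, at 0.755 to 72.1 CPM (median 4.96) in GV3h and 0.0935 to 2.29 CPM (median 0.683) in GV knockout oocytes (4.35, edgeR adjusted p 3.11e-06, SE 0.66). The calls of 2 of these genes rested on few oocytes: Tmem268 had an adjusted p of 0.0516 without GV3h oocytes 15 and 16, and Mamdc2 one of 0.0550 without GV oocytes 6 and 8.

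**Figure D1:**
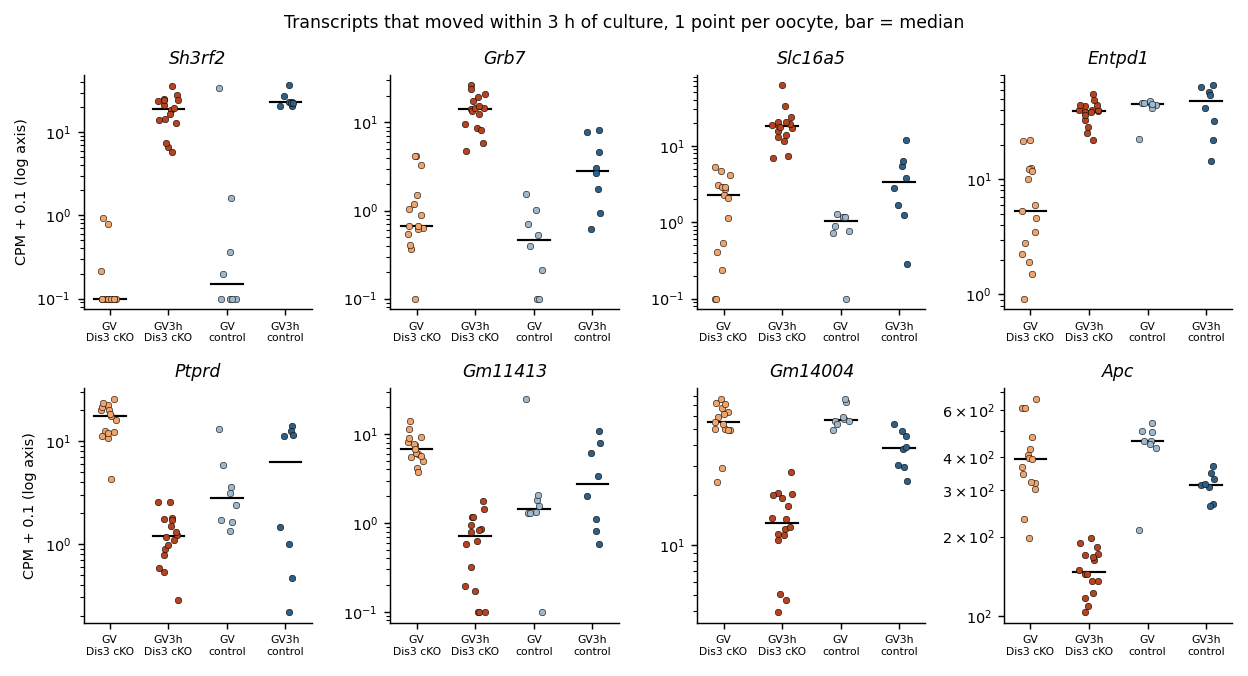
CPM plus 0.1 on a log axis for 8 genes in GV and GV3h oocytes of the Dis3 knockout (15 and 16 libraries) and of controls (8 and 8), 1 point per oocyte with the group median as a bar. Knockout points of the 2 stages do not overlap for Sh3rf2, Grb7, Slc16a5, Entpd1, Ptprd, Gm11413 and Apc, and for Gm14004 the lowest GV and the highest GV3h oocytes overlap.

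Apc, an abundant message whose protein acts in the beta-catenin destruction complex and at microtubule ends, fell by more than 2-fold. Knockout oocytes held 198 to 664 CPM (median 392) at GV and 104 to 197 CPM (median 148) at GV3h, with no overlap and a log2 fold change of -1.43 (edgeR adjusted p 1.02e-12, SE 0.13). Controls went from a range of 212 to 536 CPM (median 460.0) to one of 261 to 369.8 CPM (median 314), a change of -0.50 (adjusted p 0.134), and the difference between the changes was -0.93 (edgeR adjusted p 0.0141, SE 0.22). The fall kept its direction on the ERCC scale (-0.97) and was present in oocytes 1 to 8 (-1.73) and 9 to 16 (-1.10) taken alone. MII eggs of the knockout had a mean of 515 CPM, a share of their smaller total and not an amount per egg. Apc overlaps Gm10548 in the annotation.

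Ptprd, a receptor-type tyrosine phosphatase, dropped out of knockout oocytes, from a range of 4.21 to 26.0 CPM (median 17.6) to one of 0.183 to 2.47 CPM (median 1.10), a change of -3.78 (edgeR adjusted p 3.47e-07, SE 0.52). Controls held 1.23 to 13.1 CPM (median 2.68) at GV. Their GV3h oocytes split by title number, with oocytes 1 to 4 at 0.117 to 1.37 CPM, within or below the knockout range, and oocytes 5 to 8 at 11.01 to 13.9 CPM. Over all 8 the control change was 0.67 (adjusted p 0.674) and the difference was -4.45 (edgeR adjusted p 0.00199, SE 0.85), a value that rests on oocytes 5 to 8. Ptprd spans several other annotated genes, so its counts are uncertain to that extent. The long noncoding RNA gene Gm11413 went from a range of 3.65 to 13.9 CPM (median 6.66) to one of 0 to 1.65 CPM (median 0.605; -3.56, edgeR adjusted p 1.06e-06, SE 0.52), also without overlap. Its control change was -0.09 (adjusted p 0.966), with GV3h oocytes 1 to 4 at 0.480 to 1.94 CPM and oocytes 5 to 8 at 3.32 to 10.7 CPM. The difference was -3.47 (edgeR adjusted p 0.0134), and -2.92 (adjusted p 0.212) without GV controls 2, 3 and 6. Another long noncoding RNA, A430093F15Rik, went from 4.58 to 0.890 CPM (medians; -2.49, edgeR adjusted p 2.45e-07, SE 0.34), while control medians were 8.23 and 7.83 CPM, and its changes differed by -2.36 (edgeR adjusted p 0.0104, SE 0.55). Gm14004 fell from a range of 23.9 to 76.8 CPM (median 55.1) to one of 3.85 to 27.7 CPM (median 13.5; -1.98, edgeR adjusted p 6.87e-09, SE 0.23), and the difference from the control change had an adjusted p of 0.0495.

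Grb14, an adaptor related to Grb7, moved the opposite way to it. It was at 1.00 to 35.1 CPM (median 5.43) in knockout GV and 0 to 3.09 CPM (median 0) in knockout GV3h oocytes, a log2 fold change of -4.62 (edgeR adjusted p 2.47e-06, SE 0.69). Controls at GV held 29.3 and 14.5 CPM in oocytes 1 and 7 and 0 to 3.03 CPM in the others. At GV3h controls held 15.6 to 29.5 CPM (median 22.0), all above every knockout GV3h oocyte, so they rose from an uneven start. The difference between the changes, which includes that rise, was -6.29 (edgeR adjusted p 9.85e-04, SE 1.11). The fall was -6.28 in oocytes 1 to 8 and -2.32 in oocytes 9 to 16, where its adjusted p was 0.170. Myocd, a coactivator of serum response factor, fell in both genotypes, from a median of 5.47 to 0.125 CPM in the knockout (-4.25, edgeR adjusted p 1.13e-05, SE 0.69) and in controls (-3.21, adjusted p 0.0366). The uncharacterised gene 1190007I07Rik also fell in both, at -1.68 (edgeR adjusted p 3.15e-04, SE 0.35) and -1.90 (adjusted p 0.0185). Hist1h4h, a histone H4 gene, went from 5.54 to 2.55 CPM (-1.28, edgeR adjusted p 0.00107, SE 0.29). 1190007I07Rik split by title number, as did Arid5b, Gm32687 and Elmo1, the others of the 12 fallers, and all 4 are described with such genes below.

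Set beside the controls, the same 3 h gave 471 calls among the 17389 genes (2.71%), 199 (1.14%) higher and 272 (1.56%) lower (66 and 52 on the ERCC scale), from 16 rather than 31 libraries, so the counts do not compare the size of the response. The 2 comparisons share no library. Across all genes tested their log2 fold changes had a Pearson r of 0.14, and 0.20 across the 11750 genes with a group mean of at least 5 CPM. Both correlations are over genes, which are not independent replicates. Of the 471 genes called in controls, 185 were also called in the knockout, 171 in the same direction, which is 39.3% of the control list and 6.15% of the knockout list. The difference between the genotypes' changes, tested directly, passed the threshold for 355 genes (2.04%), 239 more positive and 116 more negative in the knockout (216 and 24 of 240 on the ERCC scale). Without GV3h oocytes 15 and 16 that number was 183, and without GV control 1 it was 558. Without GV controls 2, 3 and 6, a set chosen after Ddx6, C1d, Lsm1, Syncrip and Gm26917 were seen to be highest in them, it was 35, of which 32 were among the 355, and the control comparison called 115 genes, 99 of them among the 471. Of the differences between genotypes described in the text that passed over all oocytes, those of Sh3rf2, Entpd1, AC134458.2, Grb14, Ptprd, Syncrip, Rassf4, St3gal5, Vmn1r139, Gm15459, Gm26825 and Skint5 passed without these 3 oocytes. Those of Apc, A430093F15Rik, Gm14004, Gm11413, Wee1, Ttk, Dcp2, Pan2, Lsm1, Ddx6, C1d, Gm26917, 4931408C20Rik, Gm4350 and Gm7868 did not. Among the latter the difference stayed near its size for Apc (-0.95), A430093F15Rik (-2.31), Gm14004 (-1.27), Dcp2 (-0.75), 4931408C20Rik (-8.52), Gm4350 (-7.02) and Gm7868 (-4.48). It was smaller for Gm11413 (-2.92), Wee1 (1.11), Ttk (-0.34) and Pan2 (-0.49), and moved by more than 1.5 times for Lsm1, Ddx6, C1d and Gm26917. Of the differences that passed without GV controls 2, 3 and 6, those of Sh3rf2, Gm15459 and Gm26825 did not pass without GV control 1 (edgeR adjusted p 0.698, 0.142 and 0.131). For Entpd1, AC134458.2, Ptprd, Rassf4, Vmn1r139 and Skint5, GV3h controls 1 to 4 and 5 to 8 did not overlap.

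**Figure D2:**
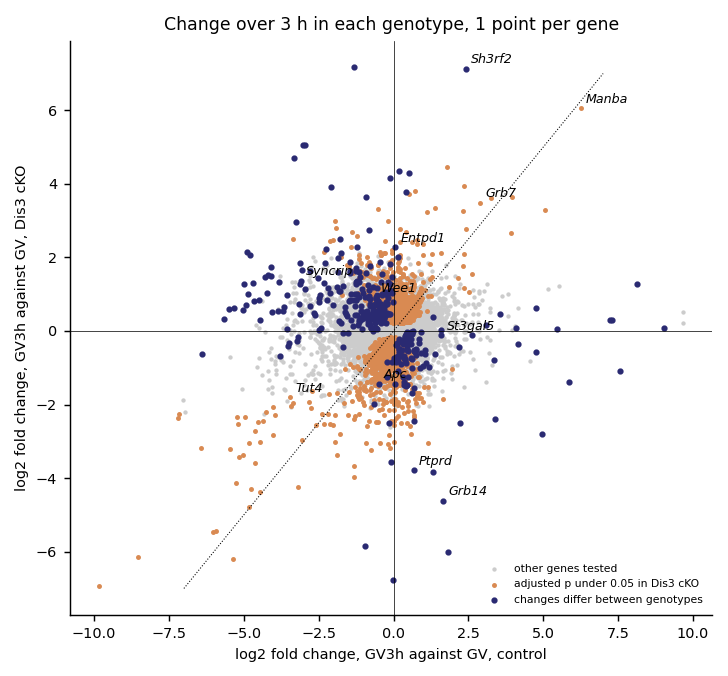
Log2 fold change of GV3h against GV in controls (x axis) and in the Dis3 knockout (y axis), 1 point per gene tested. Orange points passed an adjusted p of 0.05 in the knockout, blue points had changes that differed between the genotypes, and the dotted line marks equal change. Grb7 and Manba lie near the line, Entpd1, Ptprd and Grb14 far from it.

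Among 13 genes of the cyclic AMP pathway, which holds prophase arrest, 1 was higher and 2 were lower, near the 17.3% of all genes called (median 0.10, against 0.00 over all genes). Scaled to ERCC, the median was 0.58 and the calls were 7 higher and 1 lower. Prkar2b, a regulatory subunit of protein kinase A, fell from a range of 11.9 to 58.7 CPM (median 25.4) to one of 6.47 to 29.2 CPM (median 14.4), a change of -0.92 (edgeR adjusted p 2.39e-05, SE 0.16) that was -1.36 in oocytes 1 to 8 and -0.51 in oocytes 9 to 16. Relative to the typical message, Prkar2a fell, at -0.31, and Akap1, an anchor of the kinase at mitochondria, rose by 0.38. Both calls were lost without GV3h oocytes 15 and 16, and Prkar2a was at 0.11 on the ERCC scale. Gpr3, the receptor that keeps cyclic AMP high in oocytes, had a change of 0.27 (adjusted p 0.0526), and Pde3a, the phosphodiesterase that lowers it, one of 0.10 (adjusted p 0.557).

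Of 20 regulators of CDK1, 5 were higher and 2 lower, where 7.42% of all genes were higher and 9.88% lower. The median was -0.04 on the TMM and 0.43 on the ERCC scale, where the calls were 11 higher and 0 lower. Wee1, a kinase that inhibits CDK1, rose from a range of 15.9 to 40.3 CPM (median 26.8) to one of 30.9 to 95.7 CPM (median 45.3), with GV3h oocytes 15 and 16 the highest at 95.7 and 91.9 CPM. Its log2 fold change was 0.91 (edgeR adjusted p 1.36e-04, SE 0.18), against -0.60 (adjusted p 0.204) in controls, where GV3h oocytes held 10.5 to 21.0 CPM (median 15.1). The changes differed by 1.51 (edgeR adjusted p 0.00256, SE 0.30), and by 1.28 (adjusted p 0.0113) without oocytes 15 and 16. Pkmyt1, the membrane-bound relative of Wee1, rose by 0.68 (edgeR adjusted p 3.69e-04, SE 0.14). Fzr1, the activator of the anaphase-promoting complex that holds prophase arrest, rose from 134 to 238 CPM (0.82, edgeR adjusted p 2.34e-04, SE 0.17). Cdc20, its partner for the later activation of that complex, rose from 78.7 to 126 CPM (0.66, edgeR adjusted p 6.37e-05, SE 0.12) and by 0.82 (adjusted p 0.00212) in controls. Mastl, the Greatwall kinase that restrains the phosphatase opposing CDK1, fell from 379 to 254 CPM (-0.51, edgeR adjusted p 9.97e-06, SE 0.08), and its target Ensa rose by 0.39 (edgeR adjusted p 0.0318, SE 0.13), a call lost without GV3h oocytes 15 and 16. The Mastl change was -0.05 on the ERCC scale. Fbxo43, the inhibitor of the anaphase-promoting complex known as EMI2, fell slightly, at -0.22 (edgeR adjusted p 0.0181, SE 0.07), a change that was 0.25 on the ERCC scale. Ccnb1, which encodes cyclin B1, did not pass, at 377 ± 111 and 368 ± 51.3 CPM (-0.03, adjusted p 0.871). GV oocytes 6 and 8 held 117 and 127 CPM and the other 13 at least 357 CPM, and without these 2 the change was -0.20 (adjusted p 0.0772).

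The MOS and MAP kinase messages gave 2 rises among 8, where 7.42% of all genes rose (median -0.03 on the TMM and 0.42 on the ERCC scale). Mos, the abundant kinase that starts the pathway, was at 1685 ± 559.9 CPM at GV and 1393 ± 169 CPM at GV3h (SD, n = 15 and 16), a change of -0.27 (adjusted p 0.444). GV oocytes 6 and 8 were again the lowest, both at no more than 536 CPM against at least 1215 CPM in the other 13, and without them the change was -0.44 (adjusted p 0.163). Map2k2 and Rps6ka1, which act at the middle and the end of the cascade, rose by 0.40 and 0.53, and the Map2k2 call was lost without GV3h oocytes 15 and 16.

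Spindle and checkpoint messages gave 6 falls and 2 rises among 22, where 9.88% of all genes fell and 7.42% rose, with a median of -0.05 that is 0.40 on the ERCC scale, where 11 were higher and 0 lower. Without GV3h oocytes 15 and 16 there were 3 falls and 2 rises, and in oocytes 9 to 16 alone 0 of the 22 passed in edgeR. Mad2l1 and Ttk, which encode the MAD2 and MPS1 proteins of the spindle checkpoint, fell, at -0.42 (edgeR adjusted p 5.23e-04, SE 0.09) and -0.38 (edgeR adjusted p 1.18e-04, SE 0.07). For Ttk the control change was 0.09 (adjusted p 0.723), and the difference was -0.47 (edgeR adjusted p 0.0264, SE 0.12). It was -0.47 (adjusted p 0.0564) without GV3h oocytes 15 and 16 and -0.25 (adjusted p 0.694) on the ERCC scale. Plk1, the polo-like kinase, rose by 0.44 (edgeR adjusted p 1.65e-04, SE 0.09) and also in controls (0.40, adjusted p 0.0456). On the ERCC scale Mad2l1 and Ttk were at 0.06 and 0.08.

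Of 11 messages tested for cohesin and its guardians, 8 were lower and 0 higher (median -0.31; 0.15 on the ERCC scale), where 9.88% of all genes were lower. Cohesin holds sister chromatids together until anaphase. Wapl, which releases cohesin, went from 569 ± 145 to 379 ± 104 CPM (-0.59, edgeR adjusted p 2.52e-04, SE 0.12). Sgo2a, the shugoshin that protects centromeric cohesin in meiosis, went from 148 ± 26.9 to 104 ± 27.1 CPM (-0.51, edgeR adjusted p 0.00134, SE 0.12). Smc1b, the meiotic subunit, and Nipbl, the loader, fell, at -0.48 and -0.43, and Smc3, Pttg1, Sgo1 and Rad21 at -0.36, -0.31, -0.28 and -0.27. In controls 9 of the 11 were below 0 and 0 passed in edgeR. Without GV3h oocytes 15 and 16 the calls were 5, with Smc3, Sgo1 and Rad21 lost, and in oocytes 9 to 16 alone Wapl was the 1 call. Without GV oocytes 6 and 8 there were 7 lower and 1 higher, and with counts summed over 4 title numbers 0 lower in edgeR. On the ERCC scale Smc1b, Smc3, Pttg1, Sgo1 and Rad21 lay above 0, and 0 of the 11 were called lower.

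Of 19 genes of CCR4-NOT and other deadenylases, the machinery that removes poly(A) tails, 6 were lower and 1 higher, where 9.88% and 7.42% of all genes were. The direction of this group turned with the scaling: the median was -0.13 on the TMM and 0.32 on the ERCC scale, where 9 were higher and 1 lower. The catalytic subunits Cnot7 and Cnot6l went from 471 ± 47.0 to 299 ± 69.9 CPM (-0.65, edgeR adjusted p 8.20e-07, SE 0.09) and from 763 ± 143 to 540.1 ± 107 CPM (-0.50, edgeR adjusted p 1.31e-04, SE 0.10). Both calls held in oocytes 1 to 8 and in oocytes 9 to 16 taken alone, and on the ERCC scale the changes were -0.23 and -0.06. Pan3, Cnot4 and Cnot1 fell, at -0.45, -0.39 and -0.30 and were at 0.03, 0.04 and 0.17 on the ERCC scale. Zfp36l1, which recruits deadenylases to AU-rich messages, was near the limit of detection at 0.725 and 0.113 CPM. Tob1, an adaptor of the same complex, rose by 0.66 (edgeR adjusted p 0.00643, SE 0.18), a call lost without GV3h oocytes 15 and 16. Pan2, the catalytic partner of Pan3, differed between genotypes: its change was 0.01 (adjusted p 0.968) in the knockout and 0.66 (adjusted p 5.83e-04) in controls, a difference of -0.65 (edgeR adjusted p 0.00977, SE 0.15) that was -0.46 (adjusted p 0.447) on the ERCC scale.

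Of 18 decapping and tail-binding factors 4 were higher and 4 lower, where 7.42% of all genes were higher and 9.88% lower. On the ERCC scale the calls were 9 higher and 0 lower, and the median was 0.45 in place of 0.02. Dcp2, the decapping enzyme, fell from a range of 150.5 to 423 CPM (median 309) to one of 103 to 291 CPM (median 191; -0.70, edgeR adjusted p 9.25e-05, SE 0.13), against 0.07 (adjusted p 0.899) in controls. The difference was -0.77 (edgeR adjusted p 0.0479, SE 0.22). It was -0.81 (adjusted p 0.0742) without GV3h oocytes 15 and 16 and -0.55 (adjusted p 0.429) on the ERCC scale. Patl2, an oocyte RNA-binding protein, rose from a range of 49.02 to 132 CPM (median 75.6) to one of 62.3 to 203 CPM (median 125; 0.76, edgeR adjusted p 3.65e-04, SE 0.16), and the oocyte poly(A)-binding protein Pabpc1l by 0.45, a call lost without GV3h oocytes 15 and 16. Lsm1, of the decapping activator ring, rose in the knockout (0.36, adjusted p 0.0313) and fell in controls (-0.59, adjusted p 0.0414), and the difference was 0.95 (edgeR adjusted p 0.00759, SE 0.21). The rise of Lsm1 in the knockout did not pass without GV3h oocytes 15 and 16, and the difference did (adjusted p 0.0323). Tut4, which adds uridines to short tails, fell in both genotypes from low levels, 3.07 to 0.876 CPM in the knockout and 6.03 to 0.535 CPM in controls. Among 14 message-storage genes 3 fell: Ybx1 and Ybx3, Y-box proteins that coat messages, at -0.53 and -0.29, and Lsm14b at -0.39. The median of the 14 was -0.05 on the TMM and 0.44 on the ERCC scale, where 5 were higher and 0 lower, and Ybx3 and Lsm14b lay above 0 there. The helicase Ddx6 fell in controls (-1.21, adjusted p 0.00734) and not in the knockout (0.43, adjusted p 0.116), with a difference of 1.64 (edgeR adjusted p 0.00377, SE 0.34). GV controls 2, 3 and 6 held the most Ddx6, at 129, 93.4 and 97.6 CPM, and without them the differences were 1.06 (edgeR adjusted p 0.296) for Ddx6 and 0.54 (adjusted p 0.438) for Lsm1.

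Messages known to gain poly(A) during maturation gave 1 rise and 6 falls among 16, where 7.42% of all genes rose and 9.88% fell. This group turned as well, from a median of -0.13 on the TMM to 0.31 on the ERCC scale, where 7 were higher and 0 lower. Tex19.1 rose from 62.8 to 111 CPM (0.75, edgeR adjusted p 0.00124, SE 0.17). Beside Dcp2, Cnot7 and Cnot6l, the falls were Orc6, of the origin recognition complex, at -0.54 (edgeR adjusted p 0.00223, SE 0.13), and Tpx2 and Aurka, which build the spindle, at -0.25 and -0.21. These last 2 were at 0.19 and 0.26 on the ERCC scale. Btg4, Plat, Dazl and Ccnb1 did not pass, with changes between -0.13 and 0.05.

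Of 10 genes of the zona pellucida and secreted factors, 3 were higher and 3 lower, and of 8 of the subcortical maternal complex, 2 and 1, where 7.42% of all genes were higher and 9.88% lower. The medians were 0.16 and 0.13. Scaled to ERCC they were 0.57, with 6 higher and 0 lower, and 0.60, with 5 higher and 0 lower. The 3 lower among the secreted factors were the oocyte-secreted protein genes: Oosp1 fell from a range of 809 to 2644 CPM (median 1819) to one of 781 to 1615 CPM (median 1119; -0.64, edgeR adjusted p 2.48e-05, SE 0.11), Oosp3 from 1663 to 872 CPM (-0.74, edgeR adjusted p 0.00160, SE 0.18) and Oosp2 from 646 to 479 CPM (-0.47, edgeR adjusted p 0.00426, SE 0.12), and on the ERCC scale these were -0.16, -0.30 and -0.01, none past the threshold. The zona pellucida genes Zp1 and Zp3 rose by 0.64 (edgeR adjusted p 0.00484, SE 0.17) and 0.71 (edgeR adjusted p 0.00923, SE 0.20), and the growth factor Gdf9 by 0.46 (edgeR adjusted p 0.0243, SE 0.15). Zp2 (0.36, adjusted p 0.197) and Bmp15 (0.32, adjusted p 0.0625) did not pass. In the subcortical maternal complex, a protein assembly of the egg cortex needed by the embryo, Ooep fell, at -0.72 (edgeR adjusted p 0.00985, SE 0.21) while Padi6 and Nlrp5 rose by 0.46 and 0.37. The control changes of these genes lay between -0.35 (Ooep) and 0.55 (Zp1), and 0 of the 18 in both lists passed in controls. The rises of Zp1, Zp3, Gdf9, Padi6 and Nlrp5 did not pass in oocytes 9 to 16 alone, and those of Gdf9 and Nlrp5 also not without GV3h oocytes 15 and 16.

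Genes of the exosome and its cofactors gave 6 rises and 2 falls among 22, where 7.42% of all genes rose and 9.88% fell (median 0.09). On the ERCC scale the calls were 14 higher and 0 lower (median 0.55), and without GV3h oocytes 15 and 16 they were 3 higher and 0 lower. Among ring and cap subunits, Exosc9 rose from a range of 9.68 to 29.7 CPM (median 17.4) to one of 18.4 to 50.3 CPM (median 29.7; 0.81, edgeR adjusted p 5.09e-05, SE 0.15) and Exosc4 from 43.7 to 67.0 CPM (0.71, edgeR adjusted p 0.00127, SE 0.16), and Exosc2 and Exosc7 by 0.49 and 0.27. The Exosc9 change was 0.25 in oocytes 1 to 8, where it did not pass, and 1.21 in oocytes 9 to 16. C1d, a cofactor of EXOSC10, rose in the knockout (1.00, adjusted p 0.0231) and had a change of -1.41 (adjusted p 0.0812) in controls, a difference of 2.40 (edgeR adjusted p 0.0117, SE 0.56) that was 0.97 (adjusted p 0.777) without GV controls 2, 3 and 6. Its rise in the knockout did not pass without GV3h oocytes 15 and 16 (adjusted p 0.102). Srrt, which links capped RNA to the exosome, rose by 0.60 (edgeR adjusted p 0.00408, SE 0.15). Rbm7 and Zfc3h1, of the adaptors that bring RNA to the exosome, fell, at -0.36 and -0.30 and were at 0.10 and 0.14 on the ERCC scale. Without GV3h oocytes 15 and 16, Exosc2, Exosc7, Rbm7 and Zfc3h1 did not pass either.

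Ribosomal protein genes fell or did not pass. Of 77 tested, 27 were lower and 0 higher, where 9.88% of all genes were lower, 72 had a change below 0, and the median was -0.43 on the TMM scale and 0.02 on the ERCC scale. Their share of gene counts was 0.210 to 0.347% in knockout GV oocytes (median 0.305%) and 0.162 to 0.255% at GV3h (median 0.212%). In controls the median was -0.43 on the TMM and -0.24 on the ERCC scale, with 73 of 77 below 0 and 3 called on the former. Rps21 went from a range of 13.4 to 38.01 CPM (median 19.08) to one of 8.30 to 15.5 CPM (median 12.2; -0.91, edgeR adjusted p 3.67e-05, SE 0.16) and Rps7 from a range of 29.9 to 56.8 CPM (median 44.0) to one of 14.2 to 36.4 CPM (median 24.2; -0.83, edgeR adjusted p 3.34e-05, SE 0.15). On the ERCC scale 2 of the 77 were higher and 0 lower. The count of falls was 22 without GV3h oocytes 15 and 16, 24 in oocytes 1 to 8 and 1 in oocytes 9 to 16, where the median was -0.42. Reads of ribosomal protein genes can be shared with their many processed copies, so single values are uncertain.

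Messages of ribosomal proteins usually begin with a run of pyrimidines, and the bases around the annotated start are shown for ribosomal protein genes that fell, of which there were 27 among 77. The 30 bases from 15 before to 14 after the first transcribed base were taken from RefSeq promoters of GRCm38.p6 for 58 of the 77 genes. The letters CTTTC stood on the gene's strand in 15 of the 58 (25.9%), against 3.63% of 11739 tested genes with an annotated start, and on the other strand in 2 (3.45%) against 3.01%. The 6 genes that fell and held these letters are listed 5′ to 3′ on the gene's strand, with CTTTC in capitals.
Rps15a, chr7:118116133-118116162, minus strand: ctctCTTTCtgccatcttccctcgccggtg
Rpl39l, chr16:10170213-10170242, plus strand: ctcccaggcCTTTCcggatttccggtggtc
Rpl7a, chr2:26910792-26910821, plus strand: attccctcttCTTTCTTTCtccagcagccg
Rps26, chr10:128626492-128626521, minus strand: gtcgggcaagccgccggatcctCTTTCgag
Rplp2, chr7:141447636-141447665, plus strand: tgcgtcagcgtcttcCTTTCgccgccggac
Rpl13a, chr7:45128731-45128760, minus strand: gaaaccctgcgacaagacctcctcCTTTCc
Their log2 fold changes were -0.82, -0.81, -0.66, -0.64, -0.59 and -0.52 in that order. The letters were in 6 of 20 genes that fell and in 9 of 38 that did not pass, and Rps21, Rps19, Rps7 and Rpl34, which fell most, did not hold them in this window. For Rpl39l and Rpl7a the start used is not the outer end of the RefSeq gene. The letters in capitals begin at the annotated first base in Rplp2 alone. They lie before that base in Rps15a and Rpl39l, across it in Rpl7a and after it in Rps26 and Rpl13a. Their presence in the window therefore does not show how these messages begin.

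Of 96 nuclear oxidative phosphorylation genes, 16 were lower and 3 higher, where 9.88% of all genes were lower and 7.42% higher, with a median of -0.29 in the knockout, -0.37 in controls and 0.18 in the knockout on the ERCC scale, where the calls were 11 higher and 0 lower. Ndufc2, of complex I, went from 81.4 ± 17.6 to 44.6 ± 8.05 CPM (-0.87, edgeR adjusted p 0.00139, SE 0.20), and Uqcrc1, of complex III, rose from a median of 4.86 CPM to one of 18.1 CPM (1.59, edgeR adjusted p 0.00285, SE 0.40). Of 13 mitochondrially encoded protein genes 7 passed the filter on low counts and 6 of these fell, with a median of -0.86 (-0.35 on the ERCC scale) against -0.14 in controls. For mt-Nd1 the range was 358 to 2355 CPM (median 628) at GV and 265 to 680.2 CPM (median 490.2) at GV3h (-0.92, edgeR adjusted p 0.00285, SE 0.23), and GV oocytes 6, 7 and 8 were the highest at 1602, 1511 and 2355 CPM. In oocytes 9 to 16 alone 0 of the 7 passed in edgeR, with a median of -0.43.

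Replication-dependent histone genes gave 8 lower and 0 higher of 26 tested, where 9.88% of all genes were lower (median -0.52; -0.02 on the ERCC scale), and many of them are near-identical copies that can share reads. Subunit genes of RNA polymerase II gave 4 lower of 13 (median -0.21; 0.27 on the ERCC scale, with 5 higher and 0 lower), led by Polr2k at -0.68 (edgeR adjusted p 0.00645, SE 0.19). Hosts of small nucleolar RNAs gave 4 lower of 13, among them Snhg6 at -0.80 (edgeR adjusted p 0.00160, SE 0.19), with a median of -0.28 on the TMM and 0.14 on the ERCC scale, where 0 were higher and 0 lower. Among them was also Gas5, whose change of -0.35 is 0.14 on the ERCC scale. The median of the hosts was -0.10, with 3 lower, without GV oocytes 1, 3 and 4. It was -0.01, with 1 lower, in oocytes 1 to 8 and -0.34, with 0 of 12 lower in edgeR, in oocytes 9 to 16. Proteasome subunit genes gave 6 higher (16.2%, against 7.42% of all genes) and 6 lower of 37 (median -0.05 on the TMM and 0.41 on the ERCC scale, where 20 were higher and 0 lower), with Psmd3 of the regulatory particle rising from 58.3 ± 9.94 to 82.4 ± 12.7 CPM (0.50, edgeR adjusted p 9.54e-05, SE 0.09) and by 0.61 (adjusted p 0.00389) in controls. Among 13 oocyte transcription factor genes, whose median was -0.02 on the TMM and 0.50 on the ERCC scale, Obox1 and Obox5, homeobox genes with close copies, fell, at -0.65 (edgeR adjusted p 6.39e-04, SE 0.14) and -0.53 (edgeR adjusted p 0.00149, SE 0.12), Gtf2b at -0.39 (0.05 on the ERCC scale), and Nobox rose by 0.30. Dppa3, a maternal factor of the early embryo, fell from 1572 ± 315 to 1104 ± 208 CPM (-0.51, edgeR adjusted p 1.92e-04, SE 0.10).

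Of 24 immediate early and stress genes 18 were tested, and the 3 called are a share close to the 17.3% of all genes (median 0.03; 0.49 on the ERCC scale, with 3 higher and 0 lower). Of these, 2 were higher, the phosphatase gene Dusp1 (0.51, adjusted p 0.00468) and Ddit3 (0.50, adjusted p 0.0465), and 1 was lower, Hsp90aa1 (-0.25, adjusted p 0.0198; 0.25 on the ERCC scale). The Dusp1 call was lost without GV3h oocytes 15 and 16, and that of Ddit3 without GV oocytes 6 and 8. In the DNA damage and p53 list, with a median of -0.13 on the TMM and 0.32 on the ERCC scale, 1 of 16 passed, Brca2, with a change of -0.27 (adjusted p 0.0101) that is 0.16 on the ERCC scale. Trp63, the p53 relative that guards resting oocytes, had a change of 0.32 (adjusted p 0.127).

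**Figure D3:**
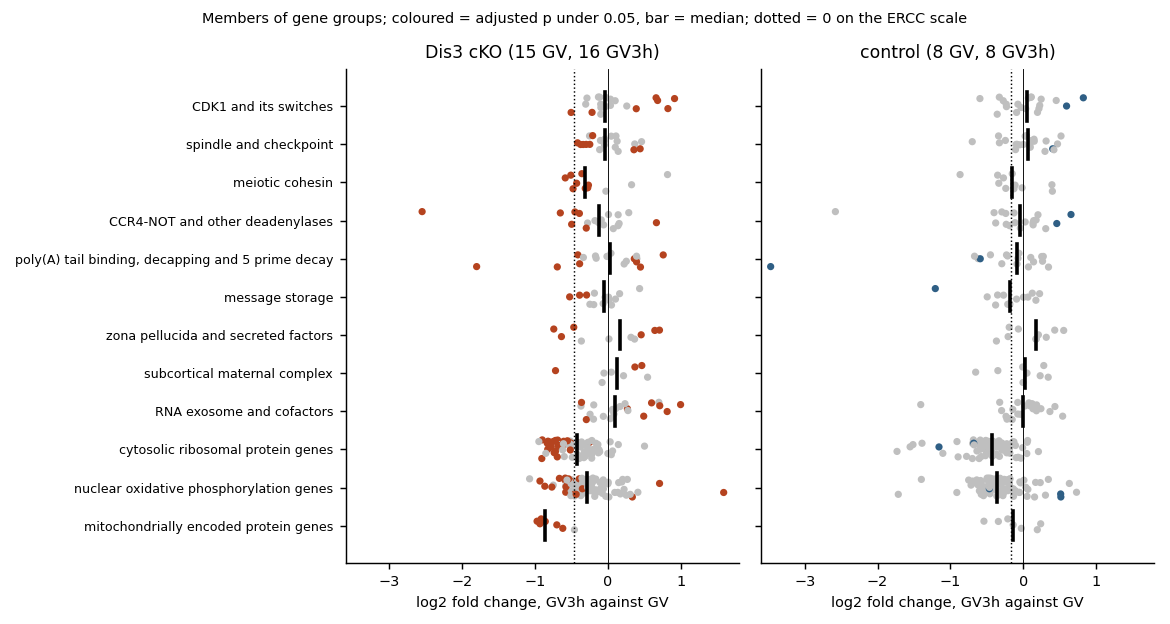
Log2 fold change of GV3h against GV for the tested members of 12 gene groups, in the Dis3 knockout (left) and controls (right), 1 point per gene, coloured where the adjusted p is under 0.05, with the group median as a bar. The solid line is 0 on the TMM scale and the dotted line marks where 0 falls on the ERCC scale. The ribosomal protein medians are -0.43 on both sides, and the cohesin and ribosomal protein medians lie to the right of the dotted line in the knockout.

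Cumulus and granulosa cells, which surround the oocyte, were checked through 18 markers, of which 13 passed the filter, 0 higher and 4 lower, where 9.88% of all genes were lower. The median was -1.20, -0.85 on the ERCC scale with 3 lower, and -3.00 in controls. It was -0.53 with 2 lower without GV oocytes 1, 3 and 4, and -0.51 over the 8 markers tested in oocytes 9 to 16, with 0 lower in edgeR. Their summed level was 76.2 to 258 CPM in knockout GV and 50.6 to 101 CPM in knockout GV3h oocytes. In controls it was 99.3 to 269.9 and 74.9 to 110.2 CPM, with 6 markers lower. Gja1, the gap junction protein of cumulus cells, was highest in GV oocytes 1, 3 and 4, at 51.4, 27.9 and 71.8 CPM, and at most 4.82 CPM at GV3h. Ptx3 and Tnfaip6, of the expanded cumulus, had no count in any library of the 4 groups, Foxl2 had counts in 8 of 15 GV and 1 of 16 GV3h knockout oocytes, and Nr5a2, Kitl and Cyp19a1 made up much of the sum at both stages. Without GV oocytes 1, 3 and 4 the comparison called 3264 genes, of which 2630 were among the 3009. The part of such RNA in the other changes was not tested.

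Gene counts rose relative to the spike-ins. Gene counts divided by ERCC counts gave 77.5 to 208 at GV (median 104) and 100.5 to 186 at GV3h (median 139). The groups overlap, and GV oocyte 16 is the single GV oocyte above 122.1. The log2 difference was 0.41 (2-sided permutation p 0.00142 from 100000 resamples, adjusted p 0.00213 over the 3 library measures, 15 of 16 GV3h oocytes above the GV mean of log2 values). Without GV oocyte 16 it was 0.48. Controls differed by 0.22 (exact permutation p 0.0693), and the difference between the genotypes' changes, 0.20, had a permutation p of 0.267. The rise was 0.62 in oocytes 1 to 8 (exact permutation p 4.66e-04) and 0.19 in oocytes 9 to 16 (exact permutation p 0.327).

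Long noncoding RNA took a smaller share after 3 h. Knockout oocytes gave 2.44 to 3.39% of gene counts to long noncoding RNA genes at GV (median 2.96%) and 2.27 to 2.90% at GV3h (median 2.51%). The log2 difference was -0.21 (permutation p 1.40e-04, adjusted p 4.20e-04 over 3 measures), and all 16 GV3h oocytes lay below the GV mean. Control shares were 2.24% and 2.34% (medians; 0.06, exact permutation p 0.200), so the knockout moved toward the control level, and the difference between the changes was -0.27 (permutation p 4.10e-04). Per ERCC count the same class was higher at GV3h, by 0.20 (permutation p 0.0590). By gene, 43 of 1394 long noncoding RNA genes tested were higher (3.08%) and 99 lower (7.10%), both shares below the 7.42% and 9.88% of all genes, with a median of -0.04 on the TMM and 0.41 on the ERCC scale, where the calls were 275 higher and 14 lower.

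The mitochondrially encoded share was 0.388 to 1.35% at GV (median 0.520%) and 0.332 to 0.600% at GV3h (median 0.492%). The log2 difference of the means was -0.35 (permutation p 0.0235, adjusted p 0.0235 over 3 measures), against 0.23 in controls (exact permutation p 0.1099), and the difference between the changes was -0.57 (permutation p 0.0121). The knockout value rested on a few GV oocytes with high shares: without GV oocytes 6 and 8 it was -0.18 (permutation p 0.107), in oocytes 9 to 16 it was -0.03 (exact permutation p 0.745), and per ERCC count it was 0.07 (permutation p 0.665).

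**Figure D4:**
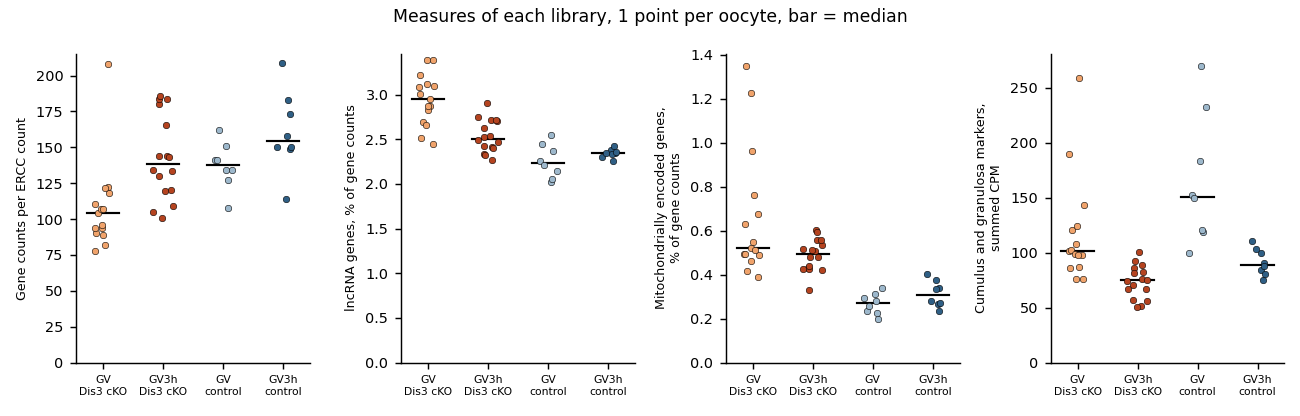
Measures of each library in GV and GV3h oocytes of the knockout and controls, 1 point per oocyte with the median as a bar: gene counts per ERCC count, percent of gene counts from long noncoding RNA genes, percent from mitochondrially encoded genes, and summed CPM of 18 cumulus and granulosa markers. The knockout medians go from 104 to 139 for the ratio and from 2.96% to 2.51% for long noncoding RNA.

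Some messages differed by runs of title numbers within a stage. Manba, the lysosomal beta-mannosidase, was at most 2.16 CPM in all 15 GV and in GV3h oocytes 1 to 8, and at 84.3 to 129 CPM in GV3h oocytes 9 to 16. Control GV3h oocytes 1 to 4 held 93.1 to 116 CPM and oocytes 5 to 8 no more than 1.04 CPM. Arid5b, a DNA-binding protein gene and 1 of the 12 fallers, was at 143 to 390.3 CPM (median 286) in GV oocytes, at 4.84 to 187 CPM in GV3h oocytes 1 to 8, and at no more than 1.88 CPM in oocytes 9 to 16. Control GV3h oocytes showed the same split, at 0.840 to 2.81 CPM in oocytes 1 to 4 and 11.4 to 187 CPM in oocytes 5 to 8. Gm32687 and Elmo1 fell, at -2.27 and -1.70 over all oocytes, -0.94 and -0.74 in oocytes 1 to 8 and -9.07 and -4.95 in oocytes 9 to 16. For 1190007I07Rik, knockout GV3h oocytes 1 to 8 held 5.76 to 8.34 CPM and oocytes 9 to 16 0.847 to 2.85 CPM, and control GV3h oocytes 1 to 4 held 0.554 to 1.76 CPM and oocytes 5 to 8 3.00 to 7.23 CPM. Pnpla3 was at 64.4 to 87.4 CPM in GV oocytes 1 to 4 and at most 5.75 CPM in the other 27 knockout libraries. In controls it was present in GV oocytes 1 to 3 and GV3h oocytes 5 to 8, at 82.1 to 113 CPM. The labels do not say what oocytes of neighbouring numbers share. For these genes, and for Ptprd in controls, stage and source therefore cannot be told apart. The same holds in controls for other named genes whose GV3h oocytes 1 to 4 and 5 to 8 did not overlap. Among these were Entpd1, Gm11413 and Myo15b, the last at 7.52 to 16.0 and 1.52 to 3.94 CPM.

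Taken apart by title number, the oocytes gave unequal counts. Oocytes 1 to 8 alone called 2097 genes and oocytes 9 to 16 alone, with 15 GV and GV3h libraries, 548. The fit of numbers 1 to 8 also held controls and MII eggs, and that of numbers 9 to 16 held MII knockout eggs but no controls. The filter and the estimates of spread therefore differed, so calls made or missed in the 2 fits were not on equal terms. Among 15457 genes tested in both, 167 were called with the same sign in each, 68 higher and 99 lower, which is 8.35% of the first list and 30.6% of the second, and 31 were called with opposite signs. The 167 include Sh3rf2, Grb7, Slc16a5, Entpd1, Myo15b, Wee1, Cdc20, Patl2, Tex19.1 and Psmd3 among the higher, and Apc, Ptprd, Gm11413, Gm14004, Mastl, Wapl, Cnot7, Cnot6l, Pan3, Oosp1, Obox1 and Dppa3 among the lower. With counts summed over runs of 4 numbers, which leaves 4 sums at each stage, 435 genes passed, 289 higher and 146 lower, and 431 of them were among the 3009. Calls lost when libraries were left out mostly kept their size. Of 143 called genes that are named or belong to the short lists, 34 were not called without GV3h oocytes 15 and 16, and 30 of these changed by within 1.5 times of their value over all oocytes. Besides those given above, Aurka, Ybx3, Gtf2b, Gas5 and Rps19 were among the 34. Without GV oocytes 6 and 8 the call was lost for 13, Smc1b, Cnot1, Akap1, Nlrp5 and Exosc7 among them, and 11 kept their size in that sense.

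**Figure D5:**
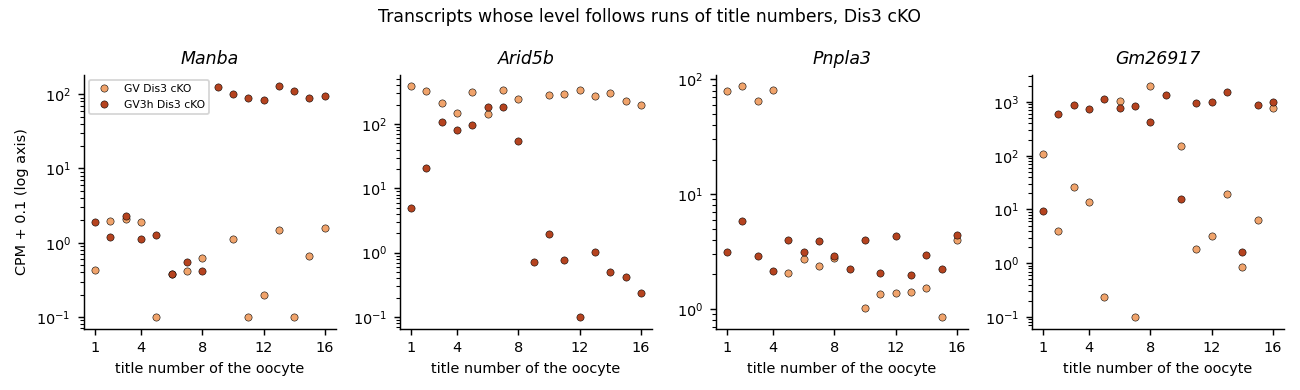
CPM plus 0.1 on a log axis against the title number of the oocyte for Manba, Arid5b, Pnpla3 and Gm26917, in GV (light) and GV3h (dark) oocytes of the Dis3 knockout, 1 point per oocyte. Manba is present in GV3h oocytes 9 to 16 alone, Arid5b is lost from the same oocytes, and Pnpla3 is present in GV oocytes 1 to 4.

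Genes whose course differed most between the genotypes were often on or off in a few oocytes. Syncrip, an RNA-binding protein gene, rose from a range of 2.71 to 13.7 CPM (median 7.39) to one of 1.35 to 55.2 CPM (median 8.82) in the knockout (1.37, edgeR adjusted p 0.00595, SE 0.37), with oocytes 15 and 16 at 55.2 and 47.6 CPM. In controls it fell from a range of 0.623 to 26.6 CPM (median 6.50) to one of 0.234 to 1.48 CPM (median 1.19; -3.10, adjusted p 5.83e-04), and the difference between the changes was 4.47 (edgeR adjusted p 1.04e-04, SE 0.68). Without oocytes 15 and 16 the knockout change was 0.85 (edgeR adjusted p 0.0967) and the difference 3.89 (adjusted p 2.39e-04). Rassf4, of the RAS-association family, fell in the knockout from a range of 0.430 to 28.0 CPM (median 7.23) to one of 0.134 to 3.60 CPM (median 1.72; -2.38, edgeR adjusted p 0.00306, SE 0.60) and rose in controls (3.38, adjusted p 0.0251), a difference of -5.76 (edgeR adjusted p 0.00199, SE 1.10). The control rise rests on GV3h oocytes 1 to 4, at 4.92 to 41.4 CPM, since oocytes 5 to 8 were at 0.109 to 1.76 CPM. St3gal5, a sialyltransferase of ganglioside synthesis, did not pass in the knockout, at 52.2 ± 8.65 and 48.1 ± 10.2 CPM, a change of -0.12 (adjusted p 0.703), and rose in controls from 32.1 ± 10.1 to 96.8 ± 28.8 CPM (1.59, adjusted p 1.06e-04), a difference of -1.71 (edgeR adjusted p 0.00123, SE 0.31). Gm26917 was at 0 to 1978 CPM in knockout GV and 1.51 to 1516 CPM in knockout GV3h oocytes, 13 of which were above 400 CPM. In controls, GV oocytes 2, 3 and 6 held 487, 434 and 500.4 CPM and the other 5 less than 10 CPM, and no GV3h oocyte exceeded 50.9 CPM.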

How the data were processed

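Poly(A) RNA of single oocytes was captured on oligo-dT beads with ERCC spike-ins, amplified and made into Nextera libraries, per the labels' protocols. The authors deposited 2 count tables per oocyte, raw read counts per gene and per ERCC RNA. The submitters' processing notes name build mm10, cutadapt 2.5, STAR 2.7.2a, SAMtools 1.9, HTSeq 0.9.1 and DESeq2 1.24.0, with no role given; annotation release, strand and overlap handling are not given in the sources used here. Rows that name no gene were left out.

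Counts were fitted with edgeR 4.0.16 in R 4.3.3 (TMM, filterByExpr, quasi-likelihood F test, Benjamini-Hochberg threshold 0.05) over the 6 poly(A) groups with 71 libraries, with contrasts for the knockout, the controls and the difference of their changes. Standard errors were taken as the log2 change over the root of F. Gene types, overlaps and starts came from RefSeq (GRCm38.p6). Shares were compared by permutation in SciPy 1.17.1. Steps were tested on simulated counts. Of 34 genes named by change or by difference, 29 were in the RefSeq table and 18 of these overlap another gene.

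The genes named are the 12 with the largest rise and the 12 with the largest fall that passed the threshold, had a group mean of at least 5 CPM, and had every oocyte of each stage beyond the other stage's median; the 6 most positive and 6 most negative differences between genotypes; up to 4 members of each gene list with others of known role; and Dis3 and Exosc10. The members and lists were chosen with earlier results of these data known. Alternatives were ERCC scaling, DESeq2 1.42.0, other filters, fits of fewer groups, title-number subsets, sums and blocks, and leaving out libraries.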

Additional observations from a re-analysis of the deposited data

Results flagged for a closer look

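The test of the difference between the genotypes' changes passed the threshold for 355 genes. Among those with a group mean of at least 5 CPM, the most positive differences (knockout change minus control change, log2) were those of Vmn1r139 at 8.49, Gm15459 at 8.08, Gm26825 at 8.01, Gm26917 at 5.75, Sh3rf2 at 4.72 and Syncrip at 4.47. All 15 knockout GV oocytes had 0 CPM of Vmn1r139, a vomeronasal receptor gene, so its fitted value depends on the prior count; knockout GV3h oocytes held 0 to 9.08 CPM (median 0.533), all of it in oocytes 1 to 8, and control oocytes held 3.24 to 19.3 CPM (median 5.33) at GV and up to 8.80 CPM at GV3h, all of it in oocytes 5 to 8. Gm15459 and Gm26825 were at no more than 0.296 and 0.296 CPM in knockout GV3h oocytes 1 to 8 and at 6.09 to 19.7 and 5.56 to 18.7 CPM in oocytes 9 to 16. The most negative were those of 4931408C20Rik at -8.97, Skint5 at -8.64, Gm4350 at -7.26, Grb14 at -6.29, Rassf4 at -5.76 and Gm7868 at -4.51. For 4931408C20Rik, Skint5, Gm4350 and Gm7868 they rest on control GV3h oocytes 5 to 8, at 3.94 to 52.5, 4.91 to 14.6, 22.9 to 30.9 and 17.5 to 24.6 CPM, where oocytes 1 to 4 held at most 0.351, 0, 0.234 and 0.664 CPM, and for Rassf4 on oocytes 1 to 4. For these genes and for Vmn1r139, Gm15459 and Gm26825, which differ by runs of title numbers, genotype and source cannot be told apart. Without GV control 1, Gm15459, Gm26825 and Sh3rf2 did not pass (4.83, 4.84 and 0.77; edgeR adjusted p 0.142, 0.131 and 0.698). Without GV3h oocytes 15 and 16, Gm26917 and Gm4350 did not pass (5.67 and -7.31; edgeR adjusted p 0.0627 and 0.0814). Without GV controls 2, 3 and 6, Gm26917 turned (-1.86; edgeR adjusted p 0.939), and 4931408C20Rik, Gm4350 and Gm7868 did not pass (-8.52, -7.02 and -4.48; edgeR adjusted p 0.107, 0.296 and 0.0884).

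In 36 checks of control groups of 8, in which chance flags about 1 in 20 groups, single oocytes stood far from the rest. GV control 1 was the high value for Gm15459 (13.5 CPM), Gm26825 (12.7 CPM) and Sh3rf2 (34.0 CPM) and the low value for Exosc10 (49.1 CPM). For 4931408C20Rik (oocyte 4, 0.200 CPM) and Skint5 (oocyte 6, 0.0983 CPM) the GV control singled out held 1 read and the other 7 held 0, so these 2 say nothing about the oocyte. At GV3h, control 6 stood out in Gm26917 (50.9 CPM), control 3 in Sh3rf2 (36.7 CPM) and control 1 in Rassf4 (41.4 CPM).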

How the results depend on the processing

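In the knockout 3009 genes passed; the other settings gave 6434 with ERCC scaling, 548 in oocytes 9 to 16, 435 with counts summed over 4 title numbers, and 2097 to 4425 otherwise. Controls gave 118 genes with ERCC scaling, 2083 in a fit of their groups alone, 1902 with the block and 0 of 471 with summed counts (edgeR, with 1794 at an unadjusted p under 0.05, and 633 with DESeq2 unsummed). Summing left only 2 sums at each control stage, so that setting could detect little in the controls or in the difference. The difference gave 545 genes with DESeq2, 841 in a fit of the 4 groups alone, 547 with the block, 1 with summed counts, 235 with GV3h oocytes 15 and 16 summed and 183 without them, 574 without GV oocytes 6 and 8, 533 without GV oocytes 1, 3 and 4, and 558 without GV control 1. Without GV controls 2, 3 and 6, chosen after seeing the data, the controls gave 115 genes and the difference 35, and the Gm26917 difference turned to -1.86. The replicate block by title number called 4189 genes in the knockout. Same-numbered oocytes did not deviate together: over 15 pairs the correlations ran from -0.22 to 0.22, 6 over 0.1, and 2 oocytes matched their own number best, so the numbers were not taken to pair the samples.

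The ratio of gene to ERCC counts rose by 0.19 in oocytes 9 to 16 (exact permutation p 0.327). Per ERCC count, long noncoding RNA turned to 0.20 and mitochondrially encoded RNA to 0.067; the latter's share was -0.081 by medians, -0.034 in oocytes 9 to 16 and -0.18 without GV oocytes 6 and 8. Of 143 genes called in the knockout among those named and the members of the short lists, 76 kept call and direction with ERCC scaling, 41 with summed counts and 109 without GV3h oocytes 15 and 16. ERCC scaling turned Prkar2a (0.11), Mad2l1 (0.059), Ttk (0.081), Smc1b (0.070), Smc3 (0.066), Rad21 (0.18), Sgo1 (0.18), Pttg1 (0.15), Fbxo43 (0.25), Aurka (0.26), Tpx2 (0.19), Plk4 (0.12), Bub1 (0.10), Cnot1 (0.17), Cnot4 (0.044), Pan3 (0.030), Pabpn1 (0.10), Xrn1 (0.047), Rbm7 (0.10), Zfc3h1 (0.14), Lsm14b (0.10), Ybx3 (0.20), Hsp90aa1 (0.25), Brca2 (0.16), Gtf2b (0.046), Polr2c (0.11), Polr2f (0.050), Polr2g (0.079) and Gas5 (0.14), Pnpla3 was at 0.91 and Vmn1r139 at 0.0 in oocytes 9 to 16, and Gm15459 (-0.89) and Gm26825 (-0.61) turned, and Otogl was at -1.96, in oocytes 1 to 8; the cause was not tested. Genes below about 1 CPM rest on few reads.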
